A study of Mus musculus with 40 samples.

Results

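The genes described here were 6 of the 26792 gene symbols in the deposited count table: Tac2, Pdyn, Tacr3, Esr1, Pgr and Prlr. They were taken by symbol, and the choice was made with results of these libraries known. Among those results were the high Tac2 and Esr1 in the pull-downs of orchiectomised mice and the low level of the set in the pull-downs as a whole. Differences between orchiectomised and sham pull-downs, and between the fractions, are therefore given for these genes as values with standard errors (SE) and without a p-value. The supernatants of the same samples and the effect of diet were tested.

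Neurokinin B, dynorphin and their receptors act within a group of neurons of the arcuate nucleus that drive the pulsed release of gonadotropin-releasing hormone. Neurokinin B excites these neurons through its receptor and dynorphin restrains them. Sex steroids from the gonads feed back on them through steroid receptors, and removal of the gonads is known in rodents to raise neurokinin B message in the arcuate nucleus. Prolactin acts on many of the same hypothalamic neurons through its own receptor.

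The samples were microdissected hypothalami of Aldh1l1 eGFP-L10a mice, in which a promoter active in astrocytes drives a ribosomal protein carrying a green fluorescent tag. Tagged ribosomes were pulled down with their bound messages, and the remaining supernatant was sequenced beside each pull-down. Both fractions were sequenced for 7 orchiectomised samples on a high-fat diet (HFD), 6 sham-operated samples on HFD and 7 sham-operated samples on chow, all after 4 weeks of diet. All 3 groups carried the transgene. Orchiectomy could be compared on HFD alone, since the orchiectomised samples were all on that diet. The labels used here do not state age, or that 1 sample is 1 mouse, so a p-value here is set by the spread among samples, which may be technical. Samples are called by their number in the labels, which is the same for a pull-down and its supernatant.

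Pull-down libraries held 7714834 to 20792175 counts each, supernatant libraries 8739276 to 12931869. The astrocyte label held: Aldh1l1, the folate enzyme whose promoter drives the tag, averaged 152 ± 31.8 CPM in orchiectomised, 160 ± 13.5 in sham HFD and 157 ± 20.0 in sham chow pull-downs (CPM, counts scaled to a common library total; SD, n = 7, 6 and 7), against 6.30 ± 4.11, 5.54 ± 5.11 and 3.96 ± 3.33 CPM in the supernatants of the same groups. All 12 astrocyte markers were higher in pull-downs than in supernatants, and all 15 neuron markers were lower (adjusted p under 0.05, edgeR). By the same rule all 5 endothelial markers and the 5 choroid plexus and 3 pituitary markers tested were higher too. All 5 microglia and all 5 oligodendrocyte markers were lower, and of 7 tanycyte and ependymal markers 2 were higher and 4 lower. Median log2 fold changes were 4.45 for astrocyte, 2.67 for endothelial, 2.42 for choroid plexus and 1.25 for pituitary markers. In this comparison 6735 of 15629 genes passed as higher and 6826 as lower. The neuron markers were still detected: their summed level was 482 to 1121 CPM in orchiectomised, 489 to 975 in sham HFD and 411 to 854 in sham chow pull-downs, and none of the 15 was at 0. Pull-downs 22 (orchiectomised), 1 (sham HFD) and 8 (sham chow) had the highest neuron marker sum of their group. In these 3 pull-downs Gm42418, an RNA gene that overlaps a ribosomal repeat, took 15.1%, 18.2% and 13.3% of the counts, against 1.07% to 18.2% over all 20.

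On GRCm38, Tac2 lies at chr10:127724478-127731768 (plus strand), Pdyn at chr2:129686565-129699844 (minus), Tacr3 at chr3:134829007-134934579 (plus), Esr1 at chr10:4611593-5005614 (plus), Pgr at chr9:8899833-8968611 (plus) and Prlr at chr15:10177238-10349180 (plus), all protein-coding genes. RefSeq (GRCm38.p6) gave 10 promoter windows for the 6 genes, each from 250 bases before to 50 bases after a start site. The windows of the 2 genes with the largest differences between orchiectomised and sham pull-downs are shown here, 5′ to 3′ on the gene's strand, with matches to GGTCA in capitals. GGTCA is 1 arm of the palindromic oestrogen response element. The Tac2 window is chr10:127724228-127724527 and the first of 2 Esr1 windows is chr10:4611739-4612038, both on the plus strand.
Tac2: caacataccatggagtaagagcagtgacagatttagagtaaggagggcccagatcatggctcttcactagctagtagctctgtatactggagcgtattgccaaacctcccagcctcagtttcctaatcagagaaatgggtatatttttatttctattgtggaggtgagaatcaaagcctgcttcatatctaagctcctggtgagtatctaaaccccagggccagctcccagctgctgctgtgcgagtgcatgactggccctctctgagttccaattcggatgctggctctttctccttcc
Esr1: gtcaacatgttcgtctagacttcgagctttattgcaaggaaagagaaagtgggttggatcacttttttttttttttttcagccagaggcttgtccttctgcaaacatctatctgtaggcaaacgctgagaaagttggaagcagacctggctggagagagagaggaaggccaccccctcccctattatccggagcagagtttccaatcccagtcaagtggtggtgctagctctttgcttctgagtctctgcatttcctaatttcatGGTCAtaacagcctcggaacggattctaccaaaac
The Esr1 window held GGTCA at bases 266 to 270, past its start site, and no other of the 10 windows held it on either strand. Of all 32851 RefSeq windows of this length, 40.5% held it. A match is one of letters in a short window and says nothing of binding.

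**Figure D1:**
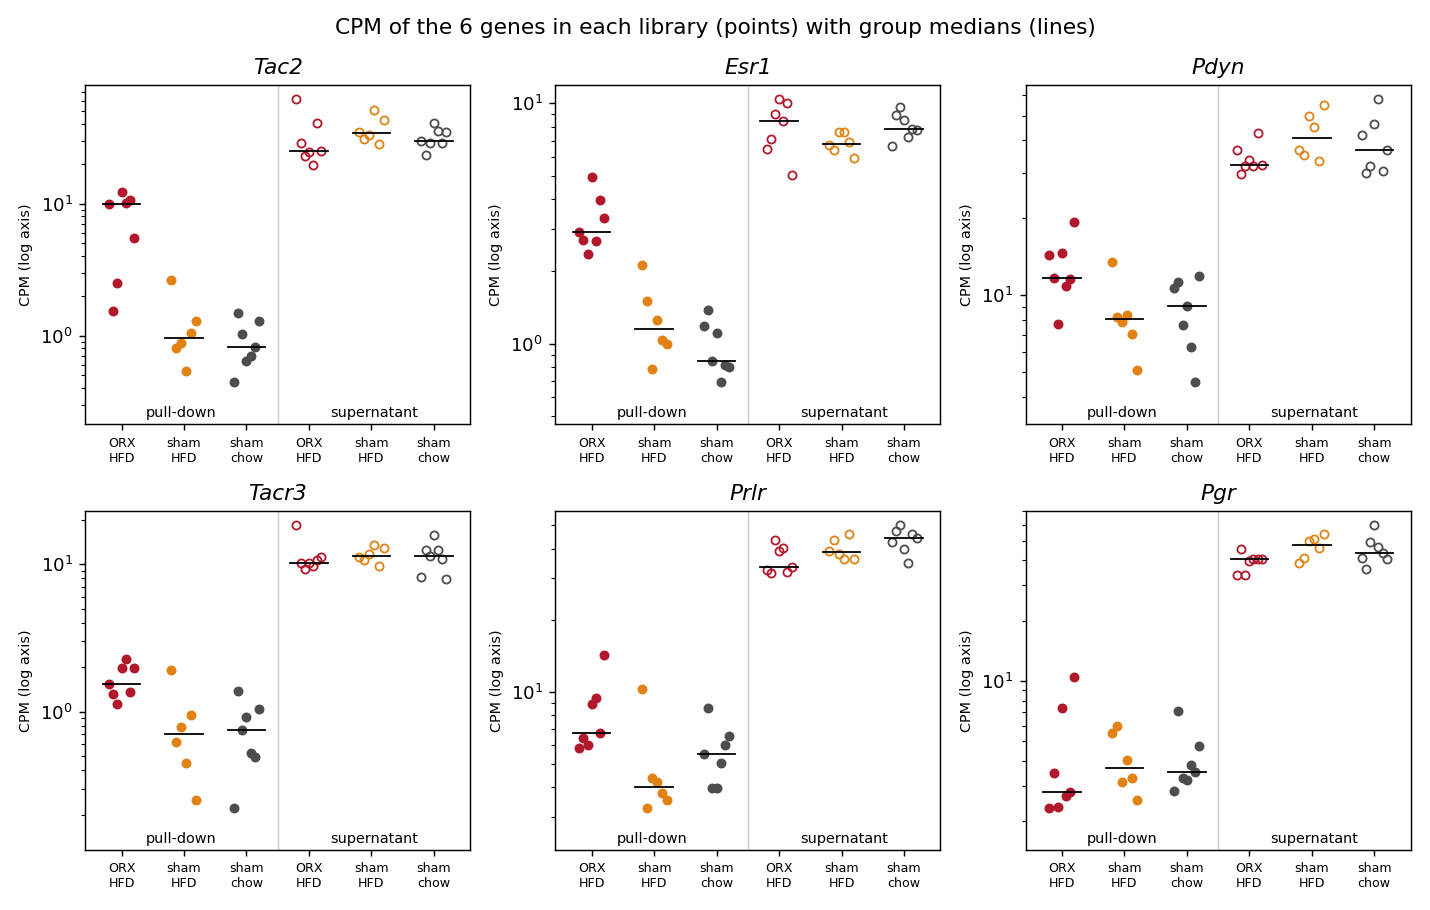
CPM (log axis) of the 6 genes in each pull-down (filled) and supernatant (open) library by group, with group medians as lines (n = 7 orchiectomised HFD, 6 sham HFD, 7 sham chow per fraction). Orchiectomised pull-downs lie highest for Tac2 and Esr1, with Esr1 at 2.37 to 4.93 CPM and no overlap with either sham group, while supernatant groups overlap for all 6 genes.

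Tac2 and Esr1 stood furthest above sham in the pull-downs of orchiectomised mice, Tacr3, Prlr and Pdyn stood above it by less, and Pgr did not stand apart. The first 5 were 1.56 to 6.27 times as high as in sham HFD pull-downs by the fitted model. The supernatants showed no such difference. Of the 6 genes, 0 passed the threshold (adjusted p under 0.05, edgeR quasi-likelihood test) for orchiectomy in the supernatant, where 0.0% of 14628 genes passed. The groups overlapped there for each of the 6 genes, while 0.0205% of genes were separated in the higher and 0.0479% in the lower direction. At an unadjusted p under 0.05, 439 genes passed, 3.0% of those tested, and DESeq2 called 5 genes, none of the 6. In pull-downs 0.0% of 14059 genes passed for orchiectomy (918, or 6.53%, at an unadjusted p under 0.05; 12 by DESeq2), and 2 of 14059 (0.0142%) passed for orchiectomy plus diet, namely Tac2 and Esr1 (1566, or 11.1%, at an unadjusted p under 0.05). Nothing is read from these pull-down calls, since the genes were chosen with them known.

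Tac2 encodes the precursor of neurokinin B, the excitatory tachykinin of the arcuate neurons. In the pull-downs of orchiectomised samples 2, 6, 10, 11, 14, 17 and 22 it had 9.85, 1.53, 2.50, 12.2, 10.1, 10.7 and 5.45 CPM. Sham HFD pull-downs 1, 9, 13, 16, 18 and 20 had 2.65, 0.799, 0.872, 0.539, 1.04 and 1.30 CPM. Sham chow pull-downs 7, 8, 12, 15, 19, 21 and 23 had 0.446, 1.49, 1.04, 0.646, 0.695, 0.820 and 1.28 CPM. Thus 5 of 7 orchiectomised pull-downs lay above the highest sham HFD pull-down, samples 6 and 10 lay below it, and all 7 lay above the highest sham chow pull-down. These levels rest on 20 to 132 counts per orchiectomised library, 6 to 26 per sham HFD library and 6 to 16 per sham chow library. On the log2 scale the fold change was 2.65 ± 0.44 (SE) over sham HFD and 3.03 ± 0.43 over sham chow, 2 differences that share the orchiectomised libraries.

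The supernatants of the same samples held more Tac2 than the pull-downs in each group. Tac2 ran from 19.5 over a median of 25.1 to 61.9 CPM in orchiectomised supernatants, from 28.4 over 34.0 to 50.8 CPM in sham HFD and from 23.2 over 30.0 to 40.9 CPM in sham chow. The groups overlapped, and 4 of 7 orchiectomised supernatants lay below the lowest sham HFD one. Log2 fold changes were -0.20 ± 0.22 for orchiectomy (adjusted p = 0.945, edgeR) and -0.01 ± 0.21 for orchiectomy plus diet (adjusted p = 1.00, edgeR). Leaving out the highest supernatant, orchiectomised sample 2, gave -0.44 for orchiectomy. In bulk samples such as these, fewer cells of a type and less RNA per cell cannot be told apart.

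Pdyn encodes prodynorphin, the precursor of the opioid peptides that restrain the same neurons. It ran from 7.74 over a median of 11.6 to 19.3 CPM in orchiectomised pull-downs, from 5.09 over 8.05 to 13.5 CPM in sham HFD and from 4.59 over 9.04 to 11.9 CPM in sham chow. The groups overlapped, with 3 of 7 orchiectomised pull-downs above the highest sham HFD one, and the log2 fold change was 0.64 ± 0.23 over sham HFD. In supernatants Pdyn had 29.6, 32.0 and 42.6 CPM (lowest, median, highest) in orchiectomised, 33.3, 41.1 and 54.8 CPM in sham HFD and 29.9, 36.8 and 58.0 CPM in sham chow samples. The difference for orchiectomy there had the opposite sign, a log2 fold change of -0.32 ± 0.15 (adjusted p = 0.945, edgeR), and 4 of 7 orchiectomised supernatants lay below the lowest sham HFD one. Pdyn was among the genes under 0.05 before adjustment and did not pass after it.

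Tacr3 encodes the receptor through which neurokinin B acts. It had the lowest mean of the 6 in the pull-downs of each group, with 1.12, 1.54 and 2.29 CPM (lowest, median, highest) in orchiectomised, 0.250, 0.703 and 1.91 CPM in sham HFD and 0.223, 0.754 and 1.39 CPM in sham chow pull-downs. These are 9 to 30, 5 to 18 and 3 to 14 counts per library. Sham HFD pull-down 1 (1.91 CPM) and sham chow pull-down 8 (1.39 CPM) lay inside the orchiectomised range, and all other sham pull-downs lay below it. The log2 fold change over sham HFD was 1.05 ± 0.40, or 1.47 without that pull-down. In supernatants Tacr3 averaged 11.4 ± 3.20, 11.6 ± 1.39 and 11.3 ± 2.68 CPM (SD, n = 7, 6 and 7) in orchiectomised, sham HFD and sham chow samples. Orchiectomy gave Tacr3 a log2 fold change there of -0.02 ± 0.16 (adjusted p = 0.987, edgeR).

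Esr1 encodes oestrogen receptor alpha, the receptor through which oestradiol made from testosterone also acts in males. Orchiectomised pull-downs 2, 6, 10, 11, 14, 17 and 22 had 2.91, 2.69, 2.37, 4.93, 2.67, 3.98 and 3.34 CPM. Sham HFD pull-downs 1, 9, 13, 16, 18 and 20 had 2.12, 1.51, 0.785, 1.26, 1.04 and 0.999 CPM. Sham chow pull-downs had 0.695 to 1.39 CPM with a median of 0.848. In CPM the orchiectomised group overlapped neither sham group. Genes as separated in the higher direction made up 0.0782% of 14059 genes tested against sham HFD and 0.121% against sham chow, shares from which nothing is read for Esr1, which was chosen on these pull-downs. Esr1 had a log2 fold change of 1.36 ± 0.26 over sham HFD and 1.73 ± 0.25 over sham chow. These levels rest on 19 to 47 counts per orchiectomised, 9 to 20 per sham HFD and 8 to 16 per sham chow library. In unscaled counts orchiectomised pull-down 10 (19 counts) lay below sham HFD pull-downs 1 and 20 (20 counts each).

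In the supernatant, Esr1 had 5.05, 8.46 and 10.4 CPM (lowest, median, highest) in orchiectomised, 5.94, 6.80 and 7.57 CPM in sham HFD and 6.65, 7.84 and 9.64 CPM in sham chow samples. Orchiectomised supernatants spread on both sides of the sham HFD range, with 4 above it and 1 below. The log2 fold change for orchiectomy was 0.24 ± 0.15 (adjusted p = 0.945, edgeR) and did not pass. Esr1 was the 1 gene of the 6 with a positive difference there.

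Pgr encodes the progesterone receptor, an oestrogen-induced gene in many tissues. It ran from 2.34 over a median of 2.79 to 10.5 CPM in orchiectomised pull-downs, from 2.55 over 3.67 to 5.95 CPM in sham HFD and from 2.83 over 3.53 to 7.13 CPM in sham chow. Orchiectomised pull-downs 22 (10.5 CPM) and 11 (7.34 CPM) lay above the sham HFD range and samples 2 and 10 below it. The log2 fold change of 0.14 ± 0.34 was under its SE, and turned to -0.22 without sample 22. In supernatants Pgr had 33.7, 40.3 and 45.4 CPM (lowest, median, highest) in orchiectomised, 38.7, 47.9 and 53.9 CPM in sham HFD and 36.3, 43.2 and 60.0 CPM in sham chow samples. There the log2 fold change for orchiectomy was -0.26 ± 0.11 (adjusted p = 0.945, edgeR), a value that was under 0.05 only before adjustment.

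Prlr encodes the prolactin receptor, a cytokine receptor that signals through Jak2 and Stat5. Orchiectomised pull-downs had 5.82, 6.77 and 14.4 CPM (lowest, median, highest), against 3.28, 4.00 and 10.3 CPM in sham HFD and 3.96, 5.50 and 8.61 CPM in sham chow. The 5 sham HFD pull-downs other than sample 1 lay at 3.28 to 4.36 CPM, below all 7 orchiectomised ones, while sample 1 lay inside the orchiectomised range. The log2 fold change over sham HFD was 0.76 ± 0.27, or 1.10 without sham HFD pull-down 1. In supernatants Prlr ran from 31.5 to 43.4 CPM in orchiectomised, from 36.1 to 46.1 in sham HFD and from 34.9 to 50.3 in sham chow samples. Orchiectomy gave a log2 fold change of -0.14 ± 0.11 there (adjusted p = 0.945, edgeR), and orchiectomy plus diet gave -0.30 ± 0.11 (adjusted p = 1.00, edgeR). In that last comparison 0.0% of genes passed, 2.26% were under 0.05 before adjustment, Prlr and Pgr among them, and DESeq2 called 3 genes, none of the 6.

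**Figure D2:**
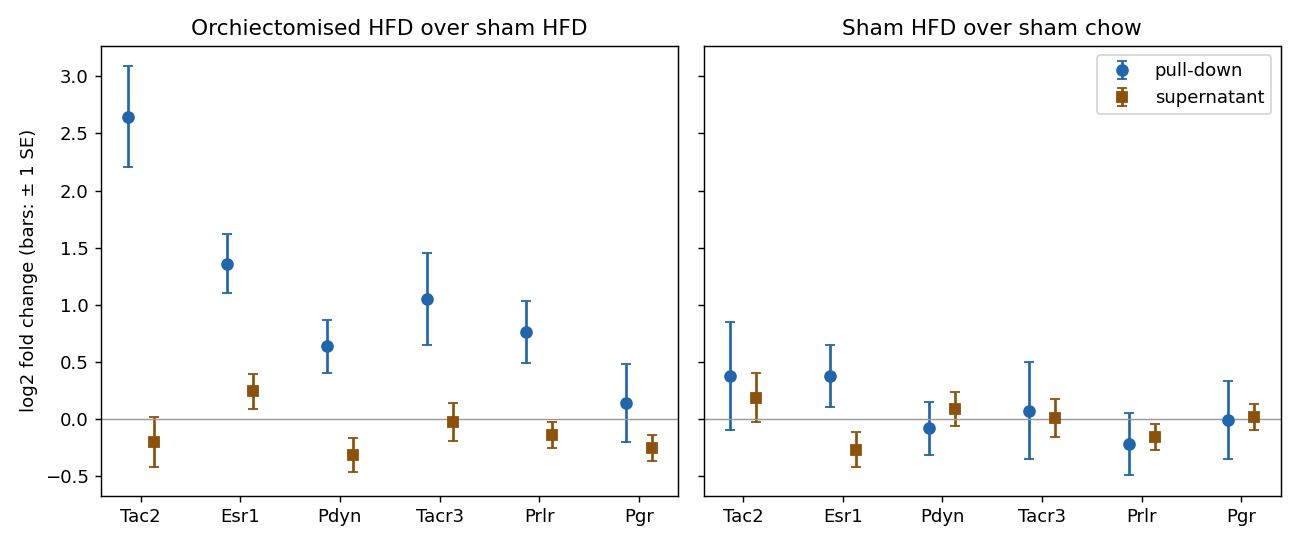
Log2 fold changes (bars, 1 SE) of the 6 genes for orchiectomised HFD over sham HFD (left) and sham HFD over sham chow (right), in pull-downs (circles) and supernatants (squares). The 6 pull-down values on the left lie between 0.14 and 2.65, and the supernatant values between -0.32 and 0.24.

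The diet alone moved none of the 6 past the threshold in either fraction, where 0.0% of 14059 genes in pull-downs and 0.0% of 14628 in supernatants passed. At an unadjusted p under 0.05, 240 and 206 genes did (1.71% and 1.41%), none of the 6 among them, and DESeq2 called 2 and 3 genes, again none of the 6. In pull-downs the log2 fold changes of sham HFD over sham chow were 0.38 ± 0.47 for Tac2, 0.37 ± 0.27 for Esr1 and between -0.22 and 0.07 for the other 4 (each adjusted p = 1.00, edgeR). The sham HFD pull-downs are also those against which the orchiectomised pull-downs were set when the genes were chosen. Without sham HFD pull-down 1 the Tac2 value was 0.03. In supernatants the values ran from -0.27 ± 0.15 for Esr1 to 0.19 ± 0.22 for Tac2 (adjusted p = 0.904 for both, edgeR).

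Each gene was less abundant in the pull-down than in the supernatant, with log2 fold changes of -4.08 ± 0.20 for Tac2, -2.00 ± 0.12 for Pdyn, -3.55 ± 0.16 for Tacr3, -2.29 ± 0.11 for Esr1, -3.42 ± 0.15 for Pgr and -2.74 ± 0.12 for Prlr. Of all genes tested, 43.7% passed in this direction, and the low pull-down level of several of the 6 was known when they were chosen. The 15 neuron markers had a median of -3.67. The value for Tac2 averages groups on opposite sides of the markers: its mean log2 ratio of pull-down to supernatant was -2.30 in orchiectomised, -5.04 in sham HFD and -5.12 in sham chow samples, where the neuron marker median averaged -3.50, -3.71 and -3.71. With 1 tag read per message, the 6 genes were ordered by mean CPM. The annotation behind the counts is not stated, so the order describes tags counted and may not be that of the messages. In sham chow pull-downs the order of mean CPM was Pdyn 8.75 ± 2.72, Prlr 5.66 ± 1.62, Pgr 4.08 ± 1.47, Esr1 0.978 ± 0.252, Tac2 0.916 ± 0.370 and Tacr3 0.763 ± 0.390 (SD, n = 7). The last 3 did not differ beyond their spread. In orchiectomised pull-downs the order was Pdyn 12.9 ± 3.66, Prlr 8.25 ± 3.05, Tac2 7.46 ± 4.26, Pgr 4.51 ± 3.19, Esr1 3.27 ± 0.902 and Tacr3 1.66 ± 0.434 CPM (SD, n = 7), with Tac2 within the spread of both its neighbours.

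Set against its own supernatant, each pull-down gave a ratio of 2 CPM values, printed as a percentage and called a share. It depends on the scaling of both fractions and is not a part of the message recovered. For the median of the astrocyte markers it ran from 864% in an orchiectomised sample to 5609% in a sham chow sample. Deviations of a pull-down and its supernatant from their group means correlated at a median of 0.034 over 20 pairs. For Tac2 the pull-down CPM was 5.42% to 51.8% of the supernatant CPM in orchiectomised samples (median 22.0%), 1.15% to 7.78% in sham HFD (median 2.93%) and 1.61% to 6.59% in sham chow (median 3.01%). The median share of the 15 neuron markers in the same samples was 7.69%, 6.50% and 7.02%. Tac2 lay above the neuron marker share of its own sample in 6 of 7 orchiectomised, 0 of 6 sham HFD and 0 of 7 sham chow samples, the exception being orchiectomised sample 6. Median shares of Esr1 were 39.9%, 17.1% and 10.9%, of Pdyn 39.2%, 19.9% and 24.0%, of Tacr3 13.2%, 6.66% and 6.16%, and of Prlr 21.2%, 10.7% and 13.1% in orchiectomised, sham HFD and sham chow samples. Pgr shares had medians of 7.18%, 7.64% and 8.25%, near those of the neuron markers in every group.

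The difference between the orchiectomy effect in pull-down and in supernatant was 2.84 ± 0.48 on the log2 scale for Tac2, 1.11 ± 0.27 for Esr1, 1.10 ± 0.38 for Tacr3, 0.94 ± 0.28 for Pdyn, 0.89 ± 0.29 for Prlr and 0.37 ± 0.35 for Pgr. Of 15629 genes tested for it, 1 passed (0.0064%), namely Tac2, and 0 passed when the sample number was added as a replicate block. This difference contains the pull-down comparison on which the genes were chosen, and nothing is read from the call.

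**Figure D3:**
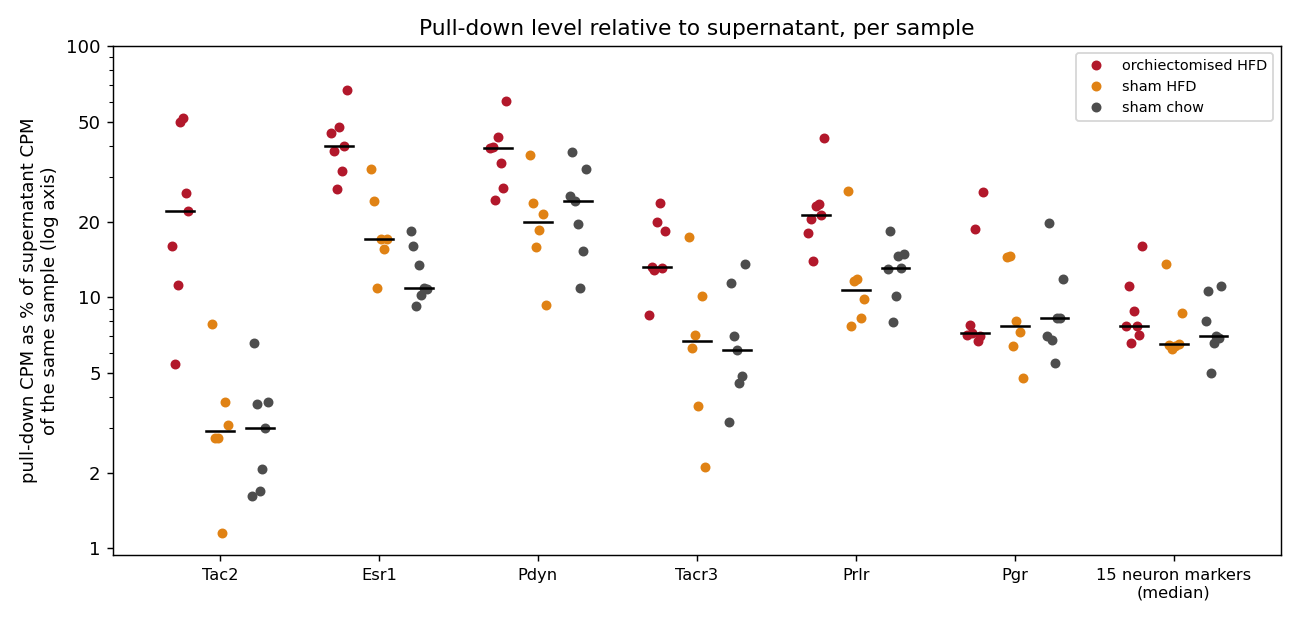
Pull-down CPM as a percentage of supernatant CPM in the same sample (log axis) for the 6 genes and for the median of 15 neuron markers, with group medians as lines (n = 7 orchiectomised HFD, 6 sham HFD, 7 sham chow). Tac2 medians are 22.0%, 2.93% and 3.01%, while medians of Pgr and the neuron markers lie between 6.50% and 8.25% in all groups.

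Markers of other cells moved with some of the genes from library to library. Within groups, on a log2 scale as deviations from group means over the 20 pull-downs, the summed neuron markers went with Prlr (Pearson r = 0.87, permutation p = 0.00017, adjusted p = 0.00158; Spearman rho = 0.71, permutation p = 0.00159, adjusted p = 0.00818). The Pearson r of Pdyn and of Pgr with the same sum was 0.76 for both (adjusted permutation p = 0.00247 and 0.00158), with a Spearman rho of 0.72 and 0.56 (adjusted permutation p = 0.00818 and 0.0486). Tac2 showed r = 0.16 (permutation p = 0.559, adjusted p = 0.694) and rho = 0.11 (permutation p = 0.653, adjusted p = 0.758). Without the 2 libraries farthest from the median in neuron markers, r was 0.72 for Prlr, 0.63 for Pdyn, 0.65 for Pgr and 0.05 for Tac2. Tacr3 had r = 0.57 (adjusted permutation p = 0.0372) and rho = 0.39 (adjusted permutation p = 0.212), and r was 0.38 without the 2 farthest. Esr1 had r = 0.48 (permutation p = 0.043, adjusted p = 0.0856) and rho = 0.31 (adjusted permutation p = 0.329). Without the 2 farthest its r was 0.36. In all, 36 relations were computed, 6 genes by 3 measures by 2 fractions, with permutation within groups and p-values adjusted over the 36.

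Endothelial markers rose and fell with the neuron markers over the same pull-downs (r = 0.91 of deviations from group means, a description over 20 libraries), so relations to either sum are not separate. Their summed level was 178 to 920 CPM in orchiectomised, 136 to 632 in sham HFD and 120 to 464 in sham chow pull-downs, all 5 of 5 had a positive log2 fold change for orchiectomy (median 0.74) and 0 passed the threshold, against a median of 0.01 over all genes. None was at 0. The within-group correlation with the endothelial sum was r = 0.79 for Pgr, 0.70 for Pdyn, 0.68 for Prlr and 0.58 for Esr1 (adjusted permutation p = 0.00158, 0.00464, 0.0161 and 0.0418). The rho of these 4 was 0.76, 0.75, 0.45 and 0.53 (adjusted permutation p = 0.00612, 0.003, 0.138 and 0.111), and r was 0.74, 0.54, 0.42 and 0.48 without the 2 farthest libraries. For Tac2 it was r = 0.01 (permutation p = 0.965, adjusted p = 0.965) and rho = -0.03 (permutation p = 0.918, adjusted p = 0.944). The Gm42418 share of the pull-downs went with Pgr (r = 0.74, adjusted permutation p = 0.00158; rho = 0.74, adjusted permutation p = 0.0036) and, by r alone, with Prlr and Tacr3 (r = 0.70 and 0.56, adjusted permutation p = 0.00976 and 0.0418; rho = 0.44 and 0.46, adjusted permutation p = 0.139 and 0.126). Without the 2 farthest libraries r was 0.70 for Pgr, 0.48 for Prlr and 0.26 for Tacr3. For Esr1 and the Gm42418 share r was 0.46 (adjusted permutation p = 0.0959) and rho 0.33 (adjusted permutation p = 0.315). That r was 0.18 without the 2 farthest. The neuron markers had 12 of 15 positive for orchiectomy, with a median of 0.18, and 0 passed. Oligodendrocyte markers had 5 of 5 positive, with a median of 0.19, and 0 passed. Without the 4 pull-downs with over 10% Gm42418, which include the 3 named above and orchiectomised sample 11, the orchiectomy difference in pull-downs was 2.89 for Tac2, 1.39 for Esr1, 1.37 for Tacr3, 0.85 for Prlr, 0.63 for Pdyn and -0.45 for Pgr. The part of neuronal or endothelial message in the differences of Tac2, Esr1, Pdyn, Tacr3 and Prlr was not tested. The neuron markers stand for neurons at large, so the low r of Tac2 does not decide this for Tac2 neurons.

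**Figure D4:**
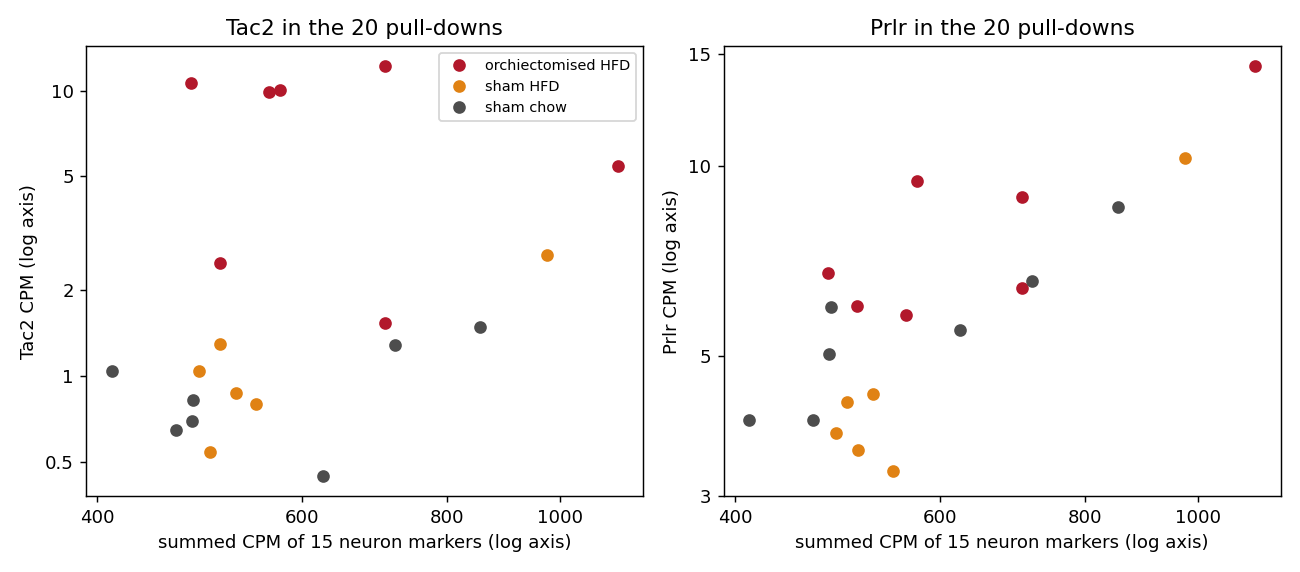
CPM of Tac2 (left) and Prlr (right) against the summed CPM of 15 neuron markers in each of the 20 pull-downs (both axes log). Prlr climbs with the neuron markers within groups (r = 0.87 of deviations from group means), while for Tac2 r was 0.16 (adjusted permutation p = 0.694).

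In the supernatants the share of Gm42418 moved with 4 of the 6 genes. As deviations from group means over 20 supernatants, it was low where Tac2 was high (r = -0.82, permutation p = 0.00018, adjusted p = 0.00158; rho = -0.78, permutation p = 0.00013, adjusted p = 0.003). Without the 2 farthest libraries r was -0.67. Prlr went the other way (r = 0.68, permutation p = 0.00041, adjusted p = 0.00246; rho = 0.75, permutation p = 0.00025, adjusted p = 0.003), and r was 0.72 without the 2 farthest. Pdyn and Tacr3 followed the direction of Tac2 (r = -0.53 and -0.66, adjusted permutation p = 0.0225 and 0.0348; rho = -0.67 and -0.48, adjusted permutation p = 0.0117 and 0.111), with r of -0.70 and -0.34 without the 2 farthest. Prlr also went with the neuron markers there (r = 0.55, adjusted permutation p = 0.0418; rho = 0.48, adjusted permutation p = 0.111), and r was 0.49 without the 2 farthest. Orchiectomised supernatant 2 stood at the end of this range, with 0.127% Gm42418 and the highest Tac2 (61.9 CPM) and Tacr3 (18.5 CPM) of the 20. Astrocyte markers had 12 of 12 positive for orchiectomy in supernatants, with a median log2 fold change of 0.32 and 0 passing, against 0.02 over all genes. Their summed level was 1938 to 4403 CPM in orchiectomised, 1732 to 4490 in sham HFD and 1480 to 3783 in sham chow supernatants, and these supernatants are the denominators of the shares given above. The part of the Gm42418 share and of astrocyte message in the supernatant values was not tested.

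By Pearson r of log2(CPM + 1) over 20 libraries, among genes with a mean of at least 5 CPM, the pull-down genes most like Tac2 were Creb3l2 (r = 0.73), Dcun1d3 (0.72) and Kctd12 (0.72), and those most like Esr1 were Axin2 (0.82), Stk24 (0.80) and Nhlrc2 (0.79). These r include the difference between groups. In supernatants they were Pcbd1 (0.93), Otp (0.93) and mt-Atp6 (0.92) for Tac2, and Trim13 (0.77), Zbtb21 (0.75) and Tsg101 (0.70) for Esr1. Each is a description over libraries that share their preparation, with no test.

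Genes around the 6 were read from 7 lists, of which 3 hold some of the 6 themselves. Counts and medians here leave the 6 out. Beside Tac2, Pdyn and Tacr3 the list of tachykinins, opioid peptides and receptors has 10 genes, of which 6 were tested, and 0 passed for orchiectomy in either fraction. Their median log2 fold change for orchiectomy was 0.21 in pull-downs (4 of 6 positive) and -0.12 in supernatants (0 of 6 positive), against 0.01 and 0.02 over all genes. Penk, the proenkephalin gene, had -0.71 ± 0.45 in pull-downs, the sign opposite to Pdyn, and -0.27 ± 0.17 in supernatants (adjusted p = 0.751 and 0.945, edgeR). Pnoc, the nociceptin precursor gene, had 0.31 ± 0.47 and -0.24 ± 0.13 (adjusted p = 0.883 and 0.945, edgeR). All 6 tested were lower in pull-downs than in supernatants (adjusted p under 0.05, edgeR), as were 43.7% of all genes tested.

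Of 7 sex steroid receptors and steroid enzymes beside Esr1 and Pgr, 5 were tested; Esr2 and Cyp19a1 (aromatase) lay under 1 CPM in both fractions. For orchiectomy 0 of 5 passed in either fraction, with medians of 0.07 in pull-downs and -0.03 in supernatants. Between fractions, Gper1, a membrane oestrogen receptor gene, was higher in pull-downs than in supernatants (log2 fold change 0.78 ± 0.24, adjusted p = 0.00298, edgeR). The difference for orchiectomy was 0.20 ± 0.20 for Srd5a1 and -0.17 ± 0.30 for Gper1 in supernatants (adjusted p = 0.945 and 0.953, edgeR).

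Of 7 genes of prolactin receptor signalling beside Prlr, 0 passed for orchiectomy, with medians of 0.18 over 7 tested in pull-downs and -0.02 over 6 tested in supernatants. Jak2 and Stat5a, a kinase and a transcription factor downstream of Prlr, were higher in pull-downs than in supernatants (1.07 ± 0.05 and 1.59 ± 0.14, adjusted p = 8.5e-23 and 9.2e-14, edgeR), unlike Prlr. Among the 7, 4 passed as higher in pull-downs and 3 as lower, the direction of Prlr (adjusted p under 0.05, edgeR). Over all 15629 genes tested, 6735 passed as higher and 6826 as lower. Socs3, a feedback inhibitor of cytokine receptors, had -0.66 ± 0.24 for orchiectomy in supernatants (adjusted p = 0.945, edgeR), with 1.30 ± 0.274 CPM in orchiectomised, 2.08 ± 0.268 in sham HFD and 1.51 ± 0.614 in sham chow samples (SD, n = 7, 6 and 7). Jak2 had 0.13 ± 0.10 there (adjusted p = 0.945, edgeR).

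Of 5 other genes of arcuate neurokinin B neurons, 0 passed for orchiectomy. The median was 0.26 over 4 tested in pull-downs (3 positive) and 0.11 over 5 tested in supernatants (4 positive). Between fractions 1 of the 5 passed as higher in pull-downs and 4 as lower (adjusted p under 0.05, edgeR). Nr5a2, a nuclear receptor gene, had 1.33 ± 0.879, 0.646 ± 0.538 and 0.397 ± 0.245 CPM in orchiectomised, sham HFD and sham chow pull-downs (SD, n = 7, 6 and 7). Its log2 fold change over sham HFD was 1.09 ± 0.56 in pull-downs (adjusted p = 0.741, edgeR) and 0.30 ± 0.40 in supernatants (adjusted p = 0.945, edgeR). Sox14 was too low to be tested in pull-downs and had 0.20 ± 0.26 in supernatants (adjusted p = 0.945, edgeR). Of 5 genes of the gonadotropin-releasing hormone axis, 3 were tested in supernatants and 0 passed for orchiectomy, with 0.54 ± 0.27 for Npvf, a gonadotropin-inhibitory peptide gene, and 0.12 ± 0.15 for its receptor gene Npffr1 (adjusted p = 0.945 for both, edgeR). Gnrh1 was lower in pull-downs than in supernatants by -5.33 ± 0.26 on the log2 scale (adjusted p = 7.5e-22, edgeR).

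Of 7 genes of other oestrogen-responsive hypothalamic neurons, 6 were tested in supernatants, and all 6 had a negative difference for orchiectomy and a positive one for diet, with medians of -0.22 and 0.17; the 2 comparisons share the sham HFD supernatants and 0 passed in either. Greb1, an oestrogen-induced gene, had 1.57 ± 0.394, 2.97 ± 0.908 and 1.88 ± 0.457 CPM in orchiectomised, sham HFD and sham chow supernatants (SD, n = 7, 6 and 7), with a log2 fold change of -0.91 ± 0.22 for orchiectomy (adjusted p = 0.945, edgeR). Cckar, a cholecystokinin receptor gene, had -0.35 ± 0.22 (adjusted p = 0.945, edgeR). Of 6 arcuate feeding and growth genes, 0 passed for orchiectomy, with a median of 0.17 in pull-downs and -0.23 in supernatants. In supernatants Agrp, an appetite-stimulating peptide gene, had -0.68 ± 0.26 and Ghrh, the growth hormone-releasing hormone gene, -0.27 ± 0.20 (adjusted p = 0.945 for both, edgeR).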

How the data were processed

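Astrocyte ribosome pull-downs and their supernatants were measured in 40 libraries. Per the labels' protocols, polyadenylated RNA was made into QuantSeq 3' FWD libraries, a kit that sequences 1 tag per message at its 3' end. Trim Galore 0.6.4, Salmon 1.9.0 and GRCm38 are named in the submitters' processing notes. The annotation and how transcripts were summed are not stated there. Estimated counts for each gene symbol were deposited by the authors. A second table deposited by the authors, named TPM, holds a signal proportional to those counts and was used for alternative tests only. Tags carry no molecular identifier, so errors are taken from the spread between samples.

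Counts were rounded and tested with edgeR 4.0.16 in R 4.3.3 (quasi-likelihood, robust, TMM, filterByExpr with a minimum count of 10, Benjamini-Hochberg adjustment over all genes, threshold 0.05). The 20 pull-downs and the 20 supernatants were fitted apart with 3 group means, and all 40 together for the comparison of fractions and for the difference of effects between fractions. All 6 genes passed the filter in every fit. CPM were scaled by TMM over all 40 libraries. Shares of pull-down over supernatant added 0.5 counts per library. Alternatives used DESeq2 1.42.0, limma 3.58.1 (voom, and log2 of the second table), RLE scaling, no filter, only the groups compared, other sets of libraries and a replicate block. The pairing comes from the labels, which give a pull-down and its supernatant 1 sample number; deviations from group means of such pairs correlated at -0.16 to 0.25 (median 0.034, 20 pairs). Correlations across libraries used 100000 permutations within groups.

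The 6 genes and the gene lists were chosen with earlier results of these data known. The text names the 6 genes, per list the genes that passed or else the 2 with the smallest p for orchiectomy in supernatants, and the 3 genes most like Tac2 and Esr1. Scripts were tested on simulated data.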

Additional observations from a re-analysis of the deposited data

Results flagged for a closer look

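Of 36 sets of values looked at (6 genes in 6 groups of libraries), 4 held a library far from the rest of its group. The nominal rate of the rule, about 1 in 20, assumes a normal spread and separate sets. These sets share libraries and were taken on unlogged CPM, so the 4 cannot be set against that rate. Sham HFD pull-down 1 had 2.65 CPM of Tac2, against 0.539 to 1.30 CPM in the other 5, and 10.3 CPM of Prlr, against 3.28 to 4.36 CPM. This pull-down also had the highest neuron marker sum of its group (975 CPM) and 18.2% Gm42418. Orchiectomised pull-down 22 had 14.4 CPM of Prlr, against 5.82 to 9.46 CPM in the other 6, beside a neuron marker sum of 1121 CPM. Orchiectomised supernatant 2 had 18.5 CPM of Tacr3, against 9.22 to 11.2 CPM in the other 6, beside the lowest Gm42418 share of all supernatants, 0.127%.

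The effect of orchiectomy on Tac2 differed between pull-down and supernatant by 2.84 ± 0.48 (SE) on the log2 scale. The difference passed the threshold in edgeR and did not pass with a replicate block, and it contains the comparison on which Tac2 was chosen.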

How the results depend on the processing

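The number of genes called depended on the tool. DESeq2 called 12 genes for orchiectomy, 2 for diet and 16 for orchiectomy plus diet in pull-downs, 5, 3 and 3 in supernatants, and 5 for the difference between fractions, against 0, 0, 2, 0, 0, 0 and 1 in edgeR. limma voom called 1 for orchiectomy plus diet in pull-downs (Esr1) and 0 for the difference between fractions, which the second table (both pseudocounts, 1 and 0.1) and the replicate block also put at 0. The block put the comparison of fractions at 13485 of 15629 genes tested, against 13561 without it. All 6 genes were called in both, as were most genes, so nothing is read from these calls. The block was run in these 2 comparisons, which set pull-down beside supernatant. Without the 4 pull-downs over 10% Gm42418, 4 genes were called for orchiectomy in pull-downs (Esr1, Tac2, Sult1a1, Phyhd1) and 2 for the difference between fractions (Tac2, Prlr). Leaving out 1 library gave 0 to 5 calls for orchiectomy in pull-downs (5 without sham HFD sample 1, Tac2 and Esr1 among them; 2 without orchiectomised sample 6; 1 without orchiectomised sample 10 or sham HFD sample 13), 2 to 4 for orchiectomy plus diet in pull-downs (4 without orchiectomised sample 6), 0 to 2 for orchiectomy plus diet in supernatants (2 without sham chow sample 7) and 0 for the other 3 comparisons within a fraction; it was not run for the 2 comparisons over both fractions. The cause was not tested.

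Of 365 values of the 6 genes under alternatives other than leaving out 1 library, 14 turned sign and 10 calls changed. DESeq2 and the fit without the Gm42418-rich pull-downs called Tac2 and Esr1 for orchiectomy in pull-downs, voom lost Tac2 for orchiectomy plus diet, voom, the second table (both pseudocounts) and the block lost Tac2 for the difference between fractions, and Prlr was called for it without the Gm42418-rich pull-downs. All 10 lie in comparisons on which the genes were chosen. The pseudocount of 1 gave smaller differences for low genes (Tac2 1.73, Esr1 0.87 and Tacr3 0.54 for orchiectomy in pull-downs). Signs turned for Pgr and Tacr3. For diet in pull-downs, Pgr was 0.000404 with DESeq2, 0.00903 and 0.00958 in the second table and 0.074 without the Gm42418-rich pull-downs, and Tacr3 was -0.086 with voom and -0.16 without those pull-downs. Pgr, at 0.14 for orchiectomy in pull-downs, was -0.04 with voom, -0.0056 and -0.035 in the second table and -0.45 without those pull-downs; for orchiectomy plus diet, at 0.13, it was -0.094, -0.026 (pseudocount 0.1) and -0.38; and for the difference between fractions, at 0.37, it was -0.18 without those pull-downs. With 1 library left out, values on both sides of 0 were -0.083 to 0.074 (Esr1), -0.26 to 0.071 (Tac2) and -0.18 to 0.087 (Tacr3) for orchiectomy plus diet in supernatants, -0.18 to 0.025 (Tacr3) for orchiectomy in supernatants, -0.061 to 0.10 (Tacr3) and -0.036 to 0.10 (Pgr) for diet in supernatants, -0.27 to 0.049 (Pdyn), -0.15 to 0.18 (Pgr) and -0.35 to 0.31 (Tacr3) for diet in pull-downs, and for Pgr in pull-downs -0.22 to 0.28 (orchiectomy) and -0.22 to 0.32 (orchiectomy plus diet). Depth limits Tac2, Esr1 and Tacr3 most, with 3 to 26 counts in sham pull-downs.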
